A study of Mus musculus with 30 samples.

Results

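Inflammatory hemophagocytes (iHPC) of TLR7.1 mice were compared with every other population sorted in the study, to find the genes that set them apart from all of them. They make up 6 of the 30 libraries, 1 from each of 6 TLR7.1 mice. The other 24 libraries fall into 4 groups of 6. The TLR7.1 mice also gave a library each of Ly6C-high monocytes (TLR7.1 Mono) and of red pulp macrophages (TLR7.1 RPM), and 6 wild-type B6 mice gave 1 library of each of these (WT Mono and WT RPM). TLR7.1 is a mouse line that overexpresses Tlr7, so the transgene is carried by all cells of 3 of the 5 groups. All 12 mice were females aged 9.4 to 15.7 weeks, and each library was made from 500 sorted spleen cells. All gates kept live CD45.2+ cells without Siglec-F and Ly6G. iHPC were then sorted as Ly6C- CD31hi VCAMlow F4/80low CD11b+, Mono as Ly6C+ Ccr2+ CD11b+, and RPM as Ly6C- CD31low VCAMhi F4/80+ cells with absent or intermediate CD11b. iHPC came from TLR7.1 mice only, so population and genotype cannot be told apart against the WT groups.

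Hemophagocytes are phagocytes that have engulfed whole blood cells, and their accumulation is a hallmark of macrophage activation syndrome. TLR7 is an endosomal receptor for single-stranded RNA that signals through MyD88 to NF-kB and interferon regulatory factors, and mice with extra Tlr7 develop a lupus-like disease with anemia. Red pulp macrophages are the resident spleen cells that clear aged red blood cells and recycle their iron, whereas Ly6C-high monocytes arrive from the blood and can become macrophages or dendritic cells.

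The total count was 292507 to 1420486 per iHPC library, with a median of 1112665, and 95002 to 1932427 over all 30 libraries. Counts per exonic base topped out at 1.19 to 1.55 in iHPC libraries and at 1.59 or less in the others (genes with 500 or more such bases), so folds between high levels may be understated. A pair of iHPC libraries stood apart from the others, both collected on 26 December. The library of mouse 24380 was the shallowest of the group and lay at 77.46 on the third principal component, which carried 7.5% of the variance, against 0.05 to 4.93 for the other 5 iHPC libraries. The library of mouse 24261 lacked the basophil genes that the other 5 held: the summed level of 20 basophil and mast cell markers was 458 there and 3362 to 5909 in the others. Where a call against each group that is named here ended with 1 mouse left out, that mouse is named beside it.

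Values below are library-scaled counts (CPM, scaled by the TMM method), given as the lowest, the median and the highest of the 6 libraries of a group. Changes are log2 differences ± SE, iHPC over the other groups, from edgeR's quasi-likelihood test with Benjamini-Hochberg adjusted p-values over 11030 tested genes. In bulk libraries, fewer cells of a type and less RNA per cell cannot be told apart.

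The genes behind the gates followed the sort. Pecam1, which encodes CD31, an adhesion molecule of leukocytes and endothelium, had 391, 547 and 605 CPM in iHPC, against 4.63, 13.3 and 18.2 in TLR7.1 Mono, 52.1, 126 and 179 in TLR7.1 RPM, 5.67, 9.55 and 16.4 in WT Mono and 96.4, 158 and 241 in WT RPM. All 6 iHPC libraries stood above all 24 others. Vcam1 had 11.4, 22.8 and 52.8 CPM in iHPC, against 1191 to 3855 in TLR7.1 RPM and 1846 to 4871 in WT RPM, and at most 17.1 in the Mono libraries. Itgam, the CD11b integrin chain, had 137, 169 and 275 CPM in iHPC, between 279.8 to 341 in TLR7.1 Mono and 0 to 46.6 in TLR7.1 RPM. Ly6c2 and Ccr2 were at most 22.1 and 22.9 CPM in iHPC, against at least 388 and 1033 in every Mono library. Adgre1, which encodes F4/80, had a median of 424 CPM in iHPC, against 819.6 in TLR7.1 RPM, 368 in TLR7.1 Mono, 412 in WT Mono and 998 in WT RPM. Siglecf and Ly6g had too few counts to be tested.

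Tlr7 followed the genotype. It had 907, 1133 and 1271 CPM in iHPC, against 767, 1030 and 1183 in TLR7.1 Mono, 497, 1001 and 1531 in TLR7.1 RPM, 215, 305 and 366 in WT Mono and 107, 202 and 384 in WT RPM. The iHPC libraries overlapped those of both TLR7.1 groups and lay above all WT libraries. Its change was 1.11 ± 0.16 against the mean of the 4 groups (adjusted p = 9.68e-07), and it did not pass against each group (adjusted p = 1). Taken by genotype, the change was 2.08 against the mean of the WT groups and 0.14 against that of the TLR7.1 groups.

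**Figure D1:**
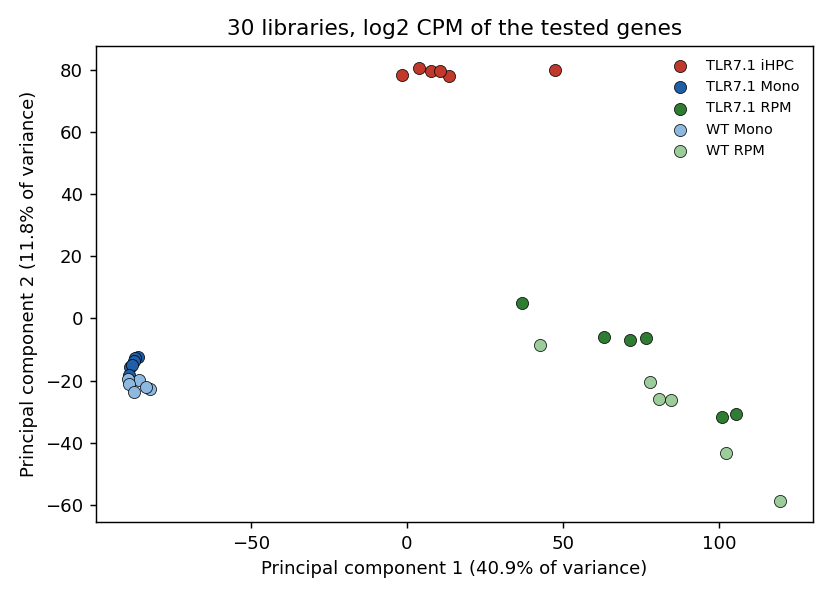
Each point is 1 of 30 libraries, placed by the first (horizontal, 40.9% of the variance) and second (vertical, 11.8%) principal components of log2 CPM over the tested genes. The 6 iHPC libraries lie between 78.15 and 80.79 on the second component and every other library at 4.99 or below.

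The expression profiles of the 30 libraries set iHPC apart from both other populations. The first principal component ran from the Mono to the RPM libraries, and the second separated all 6 iHPC libraries from the other 24. On the first, 5 iHPC libraries lay between the Mono and the RPM libraries, and that of mouse 24380, at 47.52, lay within the RPM range, which began at 36.74. Gene by gene, the mean level of iHPC was above all 4 group means in 2116 genes (19.2%), below all of them in 1785 (16.2%) and within their range in 7129 (64.6%).

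A gene was called higher than the others when it passed the test against the unweighted mean of the 4 groups and its iHPC mean was above each group mean, which held for 1247 of 11030 genes (11.3%). By the same rule, 968 genes (8.78%) were lower. A further 816 genes passed the test of the mean with iHPC inside the range of the groups, as Ccr2 did. Because the mean can pass through 1 population alone, iHPC were also tested against each group in turn, with the largest of the 4 p-values adjusted. Below, an adjusted p beside a change against the nearest group, named or not, is that of this test against each group. Against each of the 4 groups, 232 genes were higher (2.1%) and 171 were lower (1.55%), and all of them were also called by the first rule. These counts were 230 and 172 with collection date in the model. Without mouse 24261 they were 200 and 136, and without mouse 24380 they were 215 and 148. Of the 47 higher and 28 lower genes valued individually that passed against each group, DESeq2 did not call Cpa3, Lox, Negr1, Fndc1, Ifit1bl1, Ms4a3 and Mrc1.

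The genes called against each group were often far from the nearest one. Of the 232 higher genes, 179 were at least 2-fold, 91 at least 4-fold and 55 at least 8-fold above the nearest group. Of the 171 lower genes, 137, 66 and 39 were as far below it. For the higher genes the nearest group was TLR7.1 RPM in 81, WT RPM in 66, WT Mono in 50 and TLR7.1 Mono in 35. For the lower genes it was TLR7.1 Mono in 57, TLR7.1 RPM in 52, WT RPM in 36 and WT Mono in 26. All 6 iHPC libraries were above all 24 others in 212 genes (1.92% of those tested) and below all of them in 66 (0.598%).

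**Figure D2:**
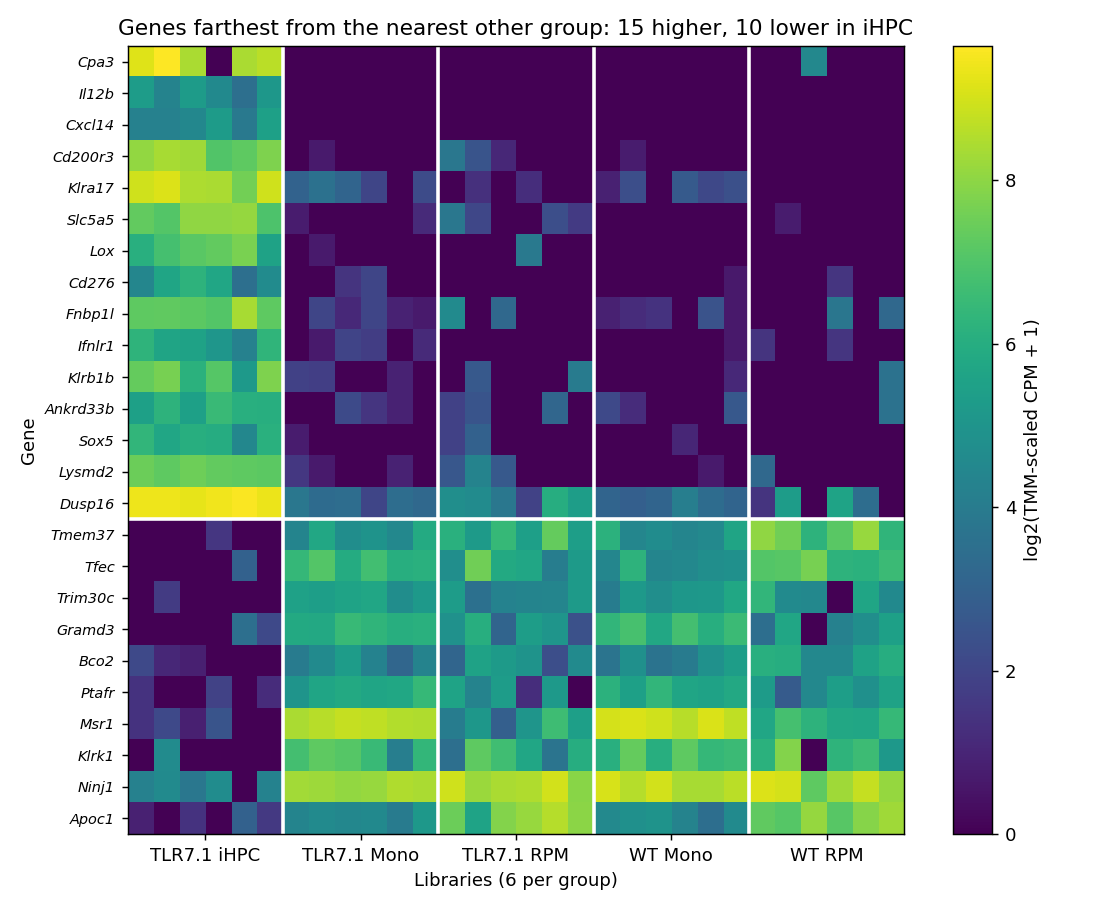
Colour gives log2(TMM-scaled CPM + 1) of the 15 higher and 10 lower genes farthest from the nearest other group (rows), in 6 libraries per group (columns, iHPC at the left). Cpa3 is at 0 in the fourth iHPC column, the library of mouse 24261, and Il12b and Cxcl14 are at 0 in all 24 other libraries.

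Receptors of the immune system were among the 15 genes farthest above the nearest group. Klra17 encodes Ly49Q, a receptor of the Ly49 family that binds MHC class I molecules and is known from plasmacytoid dendritic cells and myeloid cells. It had 194, 424 and 559 CPM in iHPC, against 0, 5.45 and 11.1 in TLR7.1 Mono, 0, 0 and 1.55 in TLR7.1 RPM, 0, 3.56 and 5.67 in WT Mono and 0 in all WT RPM libraries. Its change was 8.49 ± 0.34 against the mean (adjusted p = 5.66e-18) and 6.16 ± 0.46 against the nearest group, TLR7.1 Mono. Cd200r3, an activating member of the CD200 receptor family, had 129, 245 and 334 CPM in iHPC, against 0, 0.542 and 13.02 in TLR7.1 RPM and at most 0.654 in any Mono library and 0 in all WT RPM libraries. Its change against the nearest group was 6.39 ± 0.56 (adjusted p = 3.15e-09). The groups did not overlap for either receptor. Cd200r3 is also known from basophils and mast cells, whose other markers are given further on. Klrb1b, an inhibitory lectin receptor, had 35.2, 149 and 217 CPM in iHPC, against at most 15.01 in the other 24 libraries. Ifnlr1, a chain of the receptor for interferon lambda, had 17.6, 47.3 and 77.8 CPM in iHPC, against at most 2.91 elsewhere. The Ly49, CD200 receptor and lectin receptor genes lie in families of near-identical copies, among which the counting could split reads, so the level of a single member is less certain than its direction.

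Of 38 tested paired receptors, a group of activating and inhibitory receptors of myeloid cells, 19 were higher in iHPC than the mean of the 4 groups, with a mean level above each group mean (50%, against 11.3% of all tested genes) and 3 were lower. Against each group 11 of the 38 were higher, which are Cd200r1, Cd200r3, Cd200r4, Klra17, Klrb1b, Siglece, Clec4a1, Clec4a3, Cd300e, Cd300ld and Cd300lf, and none was lower. The median change of the list was 0.755 on the log2 scale, beside 0.034 over all tested genes. This list and the others below were chosen with earlier results of these data known, so their shares are descriptions and were not tested. Those shares stand beside 11.3% of all tested genes higher and 8.78% lower. Cd200r4 had 176, 252 and 390.4 CPM in iHPC, against 27.9 to 135 in TLR7.1 RPM, and its change against that nearest group was 1.72 ± 0.46 (adjusted p = 0.0189). Leaving out any 1 mouse kept the count of higher members between 18 and 20. The call of Cd200r4 against each group was lost without mouse 24068, 24304 or 24308, and that of Cd300lf without any 1 of these or of mice 24107, 24261 and 24380.

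Of 35 genes of antigen presentation and co-stimulation 4 were higher (11.4%), near the 11.3% of all tested genes. Of the 4, Cd276, Pdcd1lg2 and Cd72 passed against each group. The 17 lower ones are described further on. Cd276 (B7-H3), a B7 family ligand, had 10.6, 37.03 and 74.4 CPM in iHPC, against at most 2.996 in the other 24 libraries. Pdcd1lg2, which encodes the PD-1 ligand PD-L2, had 121, 165 and 185 CPM in iHPC, against 9.76 to 42.6 in TLR7.1 RPM and at most 18.01 in the other groups. Cd72, a lectin-like receptor best known from B cells, had 394, 1090 and 1200 CPM in iHPC, against 5.49 to 189 in TLR7.1 RPM, and its lowest value came from mouse 24380. No iHPC library overlapped another group in any of the 3 genes. Their changes against the nearest group were 5.36 ± 0.79, 2.76 ± 0.44 and 3.21 ± 0.67 in this order.

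**Figure D3:**
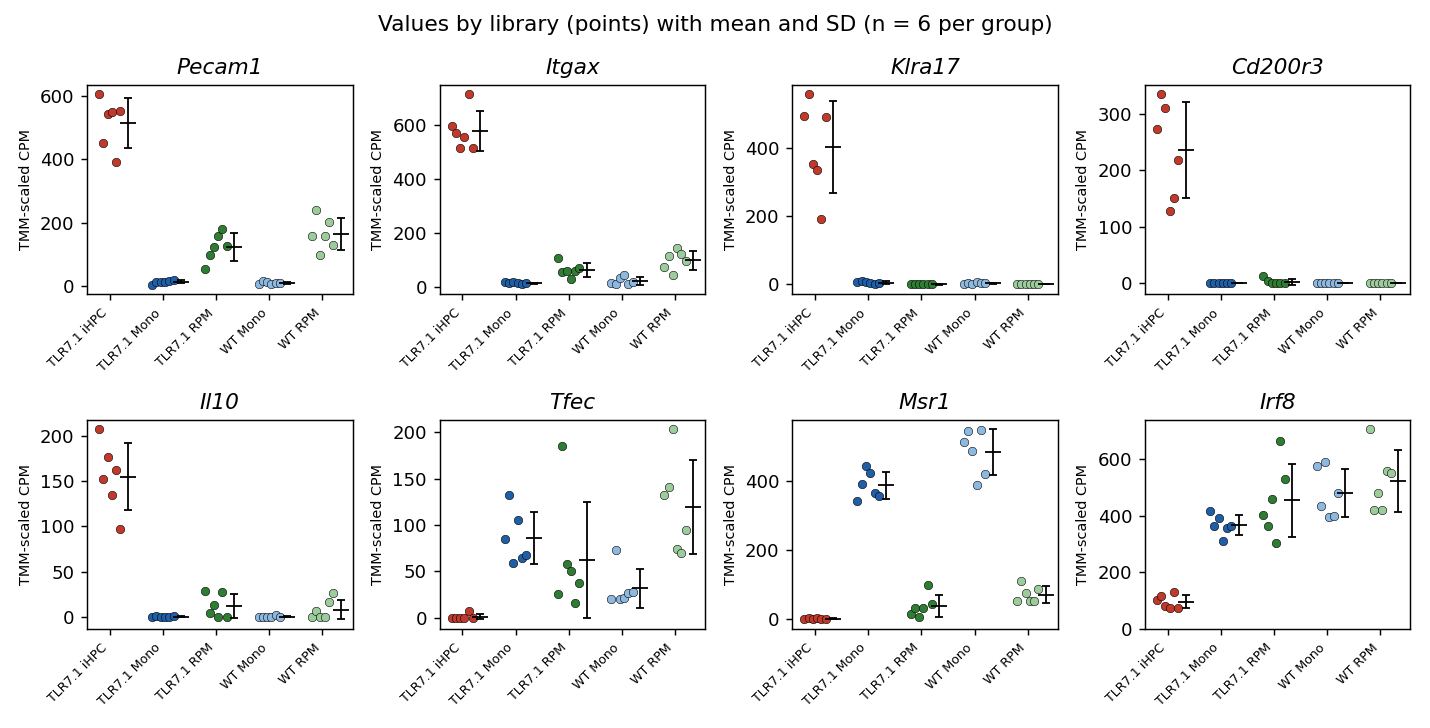
TMM-scaled CPM of 8 genes (vertical axes, linear, each with its own scale) in every library, with iHPC at the left and the mean and SD of 6 libraries beside the points. Pecam1, Itgax, Klra17, Cd200r3 and Il10 lie higher in all iHPC libraries than in any other, and Tfec, Msr1 and Irf8 lower.

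Integrins and other adhesion molecules held members that rose and members that fell. Itgax, the CD11c integrin chain, had 515, 564 and 715 CPM in iHPC, against 11.7, 13.4 and 15.9 in TLR7.1 Mono, 27.5, 58.6 and 107 in TLR7.1 RPM, 10.9, 15.8 and 43.3 in WT Mono and 42.8, 105 and 142 in WT RPM. All iHPC libraries were above all others, and the change against the nearest group, WT RPM, was 2.48 ± 0.27 (adjusted p = 9.2e-08). Pecam1, read above as a gate gene, differed from WT RPM, its nearest group, by 1.60 ± 0.24. Its adjusted p against each group was 2.39e-05. Of 17 tested integrins 8 were higher (47.1%) and 1 was lower, and Itga6, Itgax and Itgb1 were higher than in each group. Itga6, a laminin-binding chain, had 49.3, 65.6 and 83.2 CPM in iHPC, against at most 14.4 elsewhere. Of 25 other adhesion molecules 9 were higher (36%) and 5 were lower (20%). Negr1, a neuronal adhesion molecule, had 83.4, 152 and 188 CPM in iHPC, against 0 to 52.1 in TLR7.1 RPM and at most 7.2 in the other 3 groups. Ninj1, whose product takes part in plasma membrane rupture of dying cells, went the other way: it had 0, 17.9 and 24.98 CPM in iHPC, against 149.9 to 558 in the other libraries. Its change against the nearest group was -4.11 ± 0.28 (adjusted p = 1.21e-12), with no overlap.

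Among cytokines, 9 of 36 tested genes were higher (25%) and 6 were lower (16.7%), and Il1b, Il6, Il10 and Il12b were higher than in each group. Il12b, the p40 subunit shared by IL-12 and IL-23, had 10.6, 28.3 and 38.8 CPM in iHPC and no count in any of the other 24 libraries. Against a floor of 3 counts over a group, it was at least 94.3-fold higher in iHPC than in TLR7.1 Mono, 45.8-fold than in TLR7.1 RPM, 92.5-fold than in WT Mono and 36.9-fold than in WT RPM. Il10, an anti-inflammatory cytokine singled out after its values were seen, had 97.3, 157 and 207 CPM in iHPC, against 0, 8.44 and 28.6 in TLR7.1 RPM, 0, 3.22 and 25.8 in WT RPM and at most 1.92 in the Mono libraries. The groups did not overlap, and the change against the nearest group, TLR7.1 RPM, was 3.98 ± 0.70 (adjusted p = 0.000206). Il6 had 10.2, 95.5 and 139 CPM in iHPC, against at most 21.4 elsewhere, and its lowest value, from mouse 24261, lay among the other groups. Il18, the precursor of a cytokine that caspase-1 activates, was lower in iHPC, at 14.1, 23.6 and 46.6 CPM, against 52.3 to 747 in the other libraries. Its change against the nearest group was -1.86 ± 0.24 (adjusted p = 1.15e-06).

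Genes of chemokines and chemoattractant receptors were divided, with 8 of 37 higher (21.6%) and 8 lower (21.6%). Cxcl14, a chemokine of epithelia and mucosa, had 14.1, 19.5 and 43.6 CPM in iHPC and no count in the other 24 libraries. It was at least 86.8-fold higher than in TLR7.1 Mono, 42.2-fold than in TLR7.1 RPM, 85.1-fold than in WT Mono and 34-fold than in WT RPM, by the same floor. Ccl4, an inflammatory chemokine, had 254, 357 and 540.1 CPM in iHPC, against 31.6 to 266 in TLR7.1 RPM, and 5 of the 6 iHPC libraries were above all others. Its call against each group (adjusted p = 0.00875) was lost without mouse 24380. Among the lower members were the interferon-induced ligands Cxcl9, with 4.63, 23.4 and 29.5 CPM in iHPC against 19.3, 54.2 and 176 in TLR7.1 RPM, and Cxcl10, with 0, 4.099 and 95.4 CPM in iHPC against 0, 33.2 and 121 in TLR7.1 RPM. Both overlapped other groups and neither passed against each group (adjusted p = 0.281 and 0.592).

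Enzymes that shape the extracellular matrix were higher in 7 of 26 tested genes (26.9%) and lower in 5 (19.2%). Lox, the lysyl oxidase that crosslinks collagen and elastin, had 46.3, 127 and 204 CPM in iHPC, against at most 13.7 in TLR7.1 RPM, 0.616 in TLR7.1 Mono and 0 in both WT groups. Fndc1, a fibronectin-domain protein, had 32.9, 57.4 and 91.9 CPM in iHPC, against at most 16.5 elsewhere. Mmp14, a membrane-bound collagenase, had 35.4, 62.3 and 356 CPM in iHPC, and its highest value came from mouse 24380. Without that mouse its call against each group was lost. Timp2, an inhibitor of such enzymes, had 5.55, 22.4 and 73.96 CPM in iHPC, against 40.1 to 643 elsewhere, and was called lower than in each group (adjusted p = 0.000307). Other genes far from the remaining groups had separate roles. Slc5a5, the sodium iodide symporter, had 121, 210.1 and 278 CPM in iHPC against at most 13.02 elsewhere. Fnbp1l, which links membrane curvature to actin assembly, had 132, 152 and 328 CPM against at most 23.4. Dusp16, a phosphatase that turns off MAP kinases, had 621, 673 and 764 CPM in iHPC, against 0 to 63.8 in the others. Its change against the nearest group, TLR7.1 RPM, was 4.72 ± 0.46 (adjusted p = 5.62e-09). Ankrd33b, Sox5 and Lysmd2 completed the 15 genes, with medians of 66.00, 63.7 and 156 CPM in iHPC and maxima of 11.5, 6.98 and 18.6 elsewhere.

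Transcription factors of the myeloid lineage moved both ways, with 14 of 95 higher (14.7%) and 16 lower (16.8%). Runx2 had 86.6, 109 and 121 CPM in iHPC, against at most 29.9 elsewhere, and Bcl11a had 146, 180 and 335 CPM in iHPC, against at most 128. Batf3, needed for a class of dendritic cells that cross-present antigen, had 268, 309 and 352 CPM in iHPC, against at most 237 elsewhere. These 3 did not overlap with the other groups, and Batf, Runx1 and Creb5 also passed against each group. Without mouse 24068, 24261, 24304 or 24308 neither Batf nor Creb5 did, nor Batf without mouse 24107 or 24415, nor Creb5 without mouse 24117 or 24380. Irf8, the factor that dendritic cells and monocytes depend on, was lower: it had 73.8, 91.04 and 130.3 CPM in iHPC, against 310.4, 364 and 417 in TLR7.1 Mono, 302, 432 and 666 in TLR7.1 RPM, 397, 459 and 592 in WT Mono and 419, 516 and 709 in WT RPM. Its change against the nearest group was -1.97 ± 0.18 (adjusted p = 1.49e-09), with no overlap. Tfec, a factor of the MiT family that macrophages express, had 0 counts in 5 iHPC libraries and 7.04 CPM in the sixth, that of mouse 24380. In the other 24 libraries it had 15.95 to 203 CPM, and its change against the nearest group was -6.12 ± 0.80 (adjusted p = 2.11e-06).

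RefSeq promoter windows of 4 of these genes are shown, from 250 bases before to 50 after the start of transcription on GRCm38.p6, 5′ to 3′ on the gene's strand. Klra17 and Itgax are among the markers of iHPC, Cxcl14 was counted in no other library, and Tfec stood among the lowest. Capitals mark matches to 4 motifs searched on both strands: AP-1 (TGANTCA), an interferon response element (ISRE, a pair of GAAA blocks with any 2 bases between), RUNX (TGTGGTT) and PU.1 (GAGGAAGT). The windows lie at chr6:129876623-129876922 for Klra17 (minus strand), chr7:128129300-128129599 for Itgax (plus), chr13:56296502-56296801 for Cxcl14 (minus) and chr6:16898392-16898691 for Tfec (minus).
Klra17: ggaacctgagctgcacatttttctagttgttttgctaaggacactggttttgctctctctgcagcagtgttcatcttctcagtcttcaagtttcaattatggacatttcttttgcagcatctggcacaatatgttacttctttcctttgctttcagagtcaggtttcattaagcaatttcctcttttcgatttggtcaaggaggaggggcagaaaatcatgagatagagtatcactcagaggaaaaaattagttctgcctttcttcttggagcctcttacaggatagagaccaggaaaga
Itgax: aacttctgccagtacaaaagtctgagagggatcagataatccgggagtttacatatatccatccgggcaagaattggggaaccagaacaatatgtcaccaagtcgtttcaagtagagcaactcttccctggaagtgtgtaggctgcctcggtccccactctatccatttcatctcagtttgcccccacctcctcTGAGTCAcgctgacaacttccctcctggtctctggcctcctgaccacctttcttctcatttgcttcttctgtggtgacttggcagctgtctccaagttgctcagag
Cxcl14: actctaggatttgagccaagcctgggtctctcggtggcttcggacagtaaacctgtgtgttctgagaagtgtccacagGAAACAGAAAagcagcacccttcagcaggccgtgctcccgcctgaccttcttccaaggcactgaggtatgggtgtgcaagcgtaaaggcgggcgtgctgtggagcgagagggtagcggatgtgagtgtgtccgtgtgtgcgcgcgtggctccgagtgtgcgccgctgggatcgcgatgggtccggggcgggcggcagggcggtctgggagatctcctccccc
Tfec: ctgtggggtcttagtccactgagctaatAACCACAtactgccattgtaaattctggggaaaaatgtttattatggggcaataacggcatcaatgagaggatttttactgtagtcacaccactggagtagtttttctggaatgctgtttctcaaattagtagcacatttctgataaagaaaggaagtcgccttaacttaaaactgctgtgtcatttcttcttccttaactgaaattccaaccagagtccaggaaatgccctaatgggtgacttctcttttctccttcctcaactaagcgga

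The Itgax window holds an AP-1 match that starts 56 bases before the start of transcription, the Cxcl14 window an interferon response element match at 172 bases before it, and the Tfec window a RUNX match on the reverse strand at 222 bases before it. The letters of the 4 motifs are not in the Klra17 window. A window was used for 8214 of the 10806 symbols tested. AP-1 matched in 5.03% of the windows of genes higher in iHPC than in each group, 10.4% of those of genes lower than in each group and 4.83% of all windows. The interferon element matched in 3.91%, 7.46% and 3.46% of these sets, RUNX in 5.03%, 6.72% and 3.71%, and PU.1 in 4.47%, 5.22% and 3.58%. These shares are descriptions and were not tested.

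The 10 genes farthest below the nearest group included receptors and enzymes. Msr1, the class A scavenger receptor, had 0, 1.25 and 4.63 CPM in iHPC, against 341, 379 and 442 in TLR7.1 Mono, 6.503, 32.5 and 99.7 in TLR7.1 RPM, 387, 499 and 548 in WT Mono and 51.6, 64.5 and 109 in WT RPM. Every other library was above every iHPC library, and the change was -6.26 ± 0.43 against the mean (adjusted p = 1.11e-13) and -4.16 ± 0.51 against TLR7.1 RPM. Tmem37 was counted in 1 iHPC library only, at 1.85 CPM, against 19.2 to 283 CPM in the others. Apoc1, an apolipoprotein of macrophages, had at most 7.04 CPM in iHPC, against 47.3 to 383 in TLR7.1 RPM and 15.3 to 34.5 in TLR7.1 Mono. Bco2, a carotenoid-cleaving enzyme, had at most 3.37 CPM in iHPC, against 3.99 to 67.1 elsewhere. Trim30c, Gramd3, Ptafr (the receptor for platelet-activating factor) and Klrk1 (the NKG2D receptor) had medians of 0, 0, 0.671 and 0 CPM in iHPC. iHPC libraries overlapped libraries of other groups in all 4 genes, and their changes against the nearest group were -5.74 ± 0.82, -4.26 ± 0.74, -4.17 ± 0.78 and -4.13 ± 0.86. A set of 5 genes called lower than in each group had 0 counts in all 6 iHPC libraries: Casp12, Siglec1, Ocstamp, Cracr2b and Tlr11, named after their values were seen. With 1 mouse left out, the call was lost for Tlr11 (mouse 24107), Ocstamp (24107, 24304 or 24308) and, in 10 of 12 fits, all but those without mouse 24107 or 24323, Cracr2b.

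Of 41 tested receptors and effectors of phagocytosis, 10 were lower in iHPC (24.4%, against 8.78% of all tested genes) and 6 were higher (14.6%). Against each group, Msr1, Scarb2, Cd14, Mrc1, Clec7a, Fcgr1 and Fcgr3 were lower, and Scarf2, Fcgr4 and Cd47 were higher. With 1 mouse left out, the call was lost for Scarb2 (mouse 24068), Mrc1 (24304), Clec7a (24068 or 24304), Cd47 (24107 or 24308) and Fcgr1 (24068, 24117, 24308, 24415 or 24416). Mrc1, the mannose receptor, had 0, 2.16 and 52.8 CPM in iHPC, against 17.5 to 46.03 in TLR7.1 Mono and 699 to 1962 in TLR7.1 RPM, and 5 of 6 iHPC libraries lay below all others. Fcgr3, an activating Fc receptor, had 119.7, 193 and 380.4 CPM in iHPC, against 532 to 1003 elsewhere, with a change of -1.56 ± 0.18 from the nearest group (adjusted p = 1.56e-07). Cd14, the co-receptor for lipopolysaccharide, had 82.6, 125 and 197 CPM in iHPC, against 201 to 715 elsewhere. Scarf2, a scavenger receptor of the class F, went up: it had 36.9, 68.1 and 95.1 CPM in iHPC, against at most 23.9 in the others. Its change against the nearest group, TLR7.1 RPM, was 3.05 ± 0.62 (adjusted p = 0.00172).

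Of 32 iron and heme genes, the core of the red pulp macrophage's task, 2 were higher (6.25%) and 4 were lower (12.5%). Over all tested genes these shares were 11.3% and 8.78%. Flvcr1, a heme exporter, had 236, 262 and 335 CPM in iHPC, against at most 148 elsewhere, and its change against the nearest group was 1.20 ± 0.27 (adjusted p = 0.00314). Cp, the ferroxidase ceruloplasmin, had 302, 382 and 489.5 CPM in iHPC, against 80.6, 127 and 303 in TLR7.1 RPM, 0, 33.2 and 84.9 in WT RPM and at most 9.69 in the Mono libraries. It passed against each group (adjusted p = 0.0148), but not without mouse 24068, 24107, 24261 or 24308. Trf, the iron carrier transferrin, had 0.925, 3.28 and 7.04 CPM in iHPC, against 16.00 to 835 elsewhere, and Cd163, the receptor for hemoglobin and haptoglobin, was also called lower than in each group. Lrp1, a receptor for heme bound to hemopexin, had 32.2, 42.7 and 113 CPM in iHPC, against 86.8 to 492 in the others.

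Lipid and eicosanoid genes were lower in 13 of 53 (24.5%) and higher in 5 (9.43%), and 8 were lower than in each group. Pla2g7, which degrades platelet-activating factor, had 66.4, 70.8 and 109.6 CPM in iHPC, against 329 to 745 elsewhere. Its change against the nearest group, TLR7.1 RPM, was -2.62 ± 0.18 (adjusted p = 6.3e-13). Tbxas1, the thromboxane synthase, had 0, 6.63 and 20.2 CPM in iHPC, against 69.2 to 399.5 in the others. Neither overlapped. Of 21 complement genes 3 were higher (14.3%, against 11.3% of all tested genes) and 4 were lower (19%, against 8.78%). C3, the central component, had 6.65, 12.9 and 42.3 CPM in iHPC, against 477 to 807 in TLR7.1 Mono and 30.2 to 131 in TLR7.1 RPM, a change of -2.45 ± 0.36 from the nearest group (adjusted p = 1.33e-05).

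Antigen presentation and interferon genes leaned lower in iHPC. Of 35 genes of antigen presentation and co-stimulation 17 were lower (48.6%, against 8.78% of all) and 4 were higher (11.4%), with a median change of -0.817. The lower ones included the MHC class II genes H2-Ab1, H2-DMa, H2-DMb1 and H2-DMb2, the invariant chain Cd74 and the class II regulator Ciita. Only Cd80, Tnfrsf21 and Btla of the 17 also passed against each group. The list is mixed and also holds TNF receptor family genes, such as Tnfrsf21, and lymphocyte markers. Cd80 did not without mouse 24261, 24308 or 24380, and Btla did not in 7 of 12 fits that left out 1 mouse, those without mouse 24028, 24068, 24117, 24214, 24261, 24304 or 24308. Of 58 tested type I interferon response genes 22 were lower (37.9%) and 1 was higher (1.72%), with a median change of -0.695. Slfn5 had 0, 3.22 and 8.05 CPM in iHPC, against 10.7 to 154 elsewhere, and its change against the nearest group was -3.21 ± 0.47 (adjusted p = 1.66e-05). Ifi205, Trim30a and Bst2 were also lower than in each group, and the call of Ifi205 was lost in 10 of 12 fits that left out 1 mouse, all but those without mouse 24028 or 24261. Ifi44, with 0, 5.06 and 13.3 CPM in iHPC, overlapped other groups and passed only against the mean (adjusted p = 0.00057). Ifit1bl1 was the member that rose, with 123, 297 and 419.9 CPM in iHPC, against 40.9 to 188 in WT Mono, and its call against each group was lost in 9 of these 12 fits, all but those without mouse 24117, 24380 or 24416. The number of lower members was 26 against the TLR7.1 groups alone and 22 against the WT groups alone. The summed level of the interferon list was 5702 to 10563 CPM in iHPC, against 11908 to 16350 in TLR7.1 Mono, 7192 to 9715 in TLR7.1 RPM, 10743 to 19281 in WT Mono and 5331 to 8763 in WT RPM, so iHPC lay below both Mono groups and among the RPM libraries. In the library of mouse 24261 alone, 2 of the list's genes were called lower and 4 higher.

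Genes of Toll-like receptors and their signalling were higher more than lower, with 13 of 44 higher (29.5%) and 5 lower (11.4%). Cd180, Irak3, Ikbke, Nfkbiz and Tnip1, regulators of the pathway, were higher than in each group, and Tlr11 and Cd14 were lower. The call of Ikbke was lost without mouse 24261, 24304, 24308 or 24380, and that of Tlr11 without mouse 24107. Nfkbiz, which encodes the nuclear IkB protein that governs Il6 and Il12b, had 438, 544 and 750.1 CPM in iHPC, against 30.2 to 219.8 in the others. Its change against the nearest group was 1.66 ± 0.21 (adjusted p = 1.37e-06), and all iHPC libraries were above all others. Cd180, a TLR homolog without a signalling domain, had 171, 219 and 295 CPM in iHPC, against at most 128. Tlr1, Tlr7 and Tlr8 passed against the mean only.

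Axon guidance and ion channel genes were higher in 9 of 38 (23.7%) and lower in 6 (15.8%). The secreted guidance cues Slit3, with 16.6, 40.4 and 49.7 CPM in iHPC against at most 7.97 elsewhere, and Ntn4, with 35.6, 40.03 and 57.4 against at most 15.01, rose against each group. So did Plxnc1, a semaphorin receptor, with 112, 129 and 173 CPM in iHPC against at most 48.7. Nrp1, the neuropilin co-receptor for semaphorins and VEGF, fell, to 16.7, 42.7 and 98.6 CPM in iHPC against 109.5 to 328 elsewhere. The call of Ntn4 was lost without mouse 24261.

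**Figure D4:**
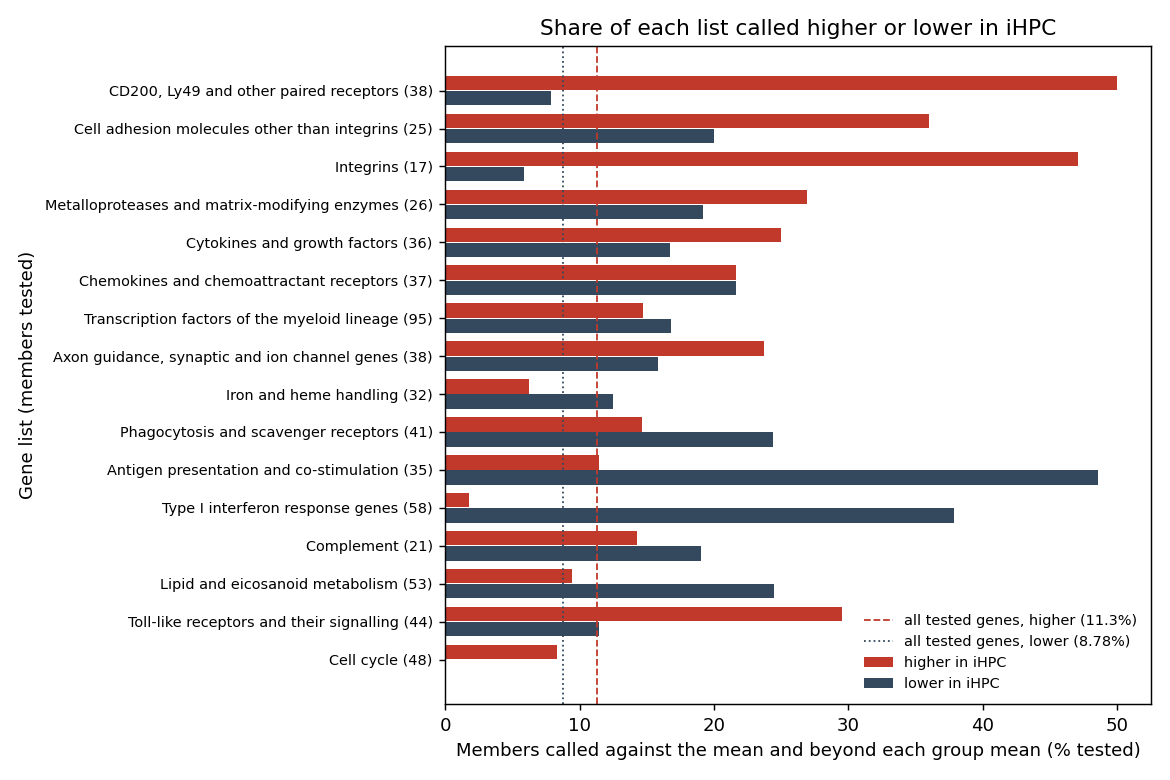
Share of the tested members of 16 gene lists (rows, number tested in brackets) called higher (red, upper bar) or lower (dark, lower bar) in iHPC than the mean of the 4 other groups, with a mean level beyond each group mean, in percent. Lines mark the shares of all 11030 tested genes, 11.3% higher and 8.78% lower. Paired receptors (50%) and integrins (47.1%) lead the higher members, antigen presentation (48.6%) and type I interferon genes (37.9%) the lower ones. The lists were chosen with earlier results of these data known, so the shares are descriptions.

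Cell cycle genes gave different counts with each genotype as the reference, a difference that was not itself tested. Of 48 tested genes 4 were higher than the mean of the 4 groups, with a mean level above each group mean (8.33%), and none was lower. Of the 4, 1 passed against each group, Ccnd2. Against the WT groups alone 26 were higher, where 11.2% of all genes were. Against the TLR7.1 groups alone 3 were higher, where 12.6% of all genes were, and 15 were lower, where 10.8% were. The summed level of the list was 3067 to 4310 CPM in iHPC, against 4001 to 6983 in TLR7.1 Mono, 2922 to 6940 in TLR7.1 RPM, 1090 to 1867 in WT Mono and 1426 to 2719 in WT RPM. Ccnd2, a D-type cyclin, had 768, 816 and 1049 CPM in iHPC, against 388 to 574 in TLR7.1 RPM, 398 to 557 in WT RPM and at most 15.9 in the Mono libraries. Its adjusted p against each group was 0.023, and the call was lost without mouse 24261 or 24304. Over all genes, 423 were higher (3.83%) and 330 lower (2.99%) than in each TLR7.1 group, and 383 higher (3.47%) and 319 lower (2.89%) than in each WT group.

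Markers of known phagocytes were spread unevenly. Of 27 markers of Ly6C-low monocytes, the patrolling monocytes of blood, 10 were higher (37%) and 1 was lower (3.7%). Cd300e, Dusp16, Eno3, Itgax, Spn and Fcgr4 were higher than in each group. Spn, which encodes CD43, had 255, 293 and 799 CPM in iHPC, against at most 150.1 elsewhere, with the highest value in mouse 24380. Eno3, a muscle enolase, had 261, 309 and 313 CPM, against at most 136. Of 33 red pulp macrophage markers 6 were lower (18.2%) and 1 was higher (3.03%), and their summed level was 5630 to 7890 CPM in iHPC, against 15787 to 32732 in TLR7.1 RPM and 1548 to 2038 in TLR7.1 Mono. The single higher one, Pparg, a lipid-sensing nuclear receptor, had 250, 499 and 644 CPM in iHPC, against 64.2 to 426 in WT RPM, and did not pass against each group (adjusted p = 0.0537). Of 26 classical monocyte markers 3 were higher (11.5%, against 11.3% of all tested genes) and 4 were lower (15.4%, against 8.78%). None of the 26 was higher than in each group. S100a8 and S100a9, 2 of the higher ones, had medians of 78.4 and 81.03 CPM in iHPC, against 109 and 35.6 in TLR7.1 Mono, and neither passed against the mean of the TLR7.1 groups alone.

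Markers of basophils and mast cells were higher in iHPC. Of 23 listed basophil and mast cell markers 20 had counts and 9 passed the filter on low counts. Of these 7 were higher (77.8%), where 11.3% of all tested genes were. A marker near 0 in the other groups passes that filter mainly through iHPC, so the filter largely set this share. The summed level of the list was 458 to 5909 CPM in iHPC, against 126 to 235 in TLR7.1 Mono, 75.8 to 295 in TLR7.1 RPM, 75.6 to 168 in WT Mono and 48.8 to 241 in WT RPM. Cpa3, the carboxypeptidase of mast cells and basophils, had 578, 796, 341, 342 and 393 CPM in the other 5 iHPC libraries and 0 in that of mouse 24261, against at most 21.4 elsewhere. Against groups at 0 it was at least 1260-fold higher than in TLR7.1 Mono, 610-fold than in TLR7.1 RPM and 1230-fold than in WT Mono. Hdc, the enzyme that makes histamine, had 1.85 CPM in that library and 50.7 to 154 in the other 5. Mcpt8, Fcer1a, Ms4a2 and Gata2, defining genes of basophils chosen here after their values were seen, did not pass the filter on low counts with that library in the group. Mcpt8, a basophil protease, had 0.925, 866 and 2011 CPM in iHPC, against at most 3.22 elsewhere, and Fcer1a, the IgE-binding chain, had 0, 267 and 620 CPM, against at most 2.604. Kit, which mast cells need and which was also chosen after its values were seen, was 0 in 5 iHPC libraries and 4.44 CPM in the sixth. Without mouse 24261 the first 4 were tested, and the change against the mean was 10.85 ± 0.30 for Mcpt8, 10.36 ± 0.37 for Fcer1a, 10.21 ± 0.48 for Ms4a2 and 8.63 ± 0.59 for Gata2. The number of higher basophil markers was then 13, with the library that lacked them left out and more of them tested. The list shares Cd200r3, Ccl4 and Il6 with the results above.

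**Figure D5:**
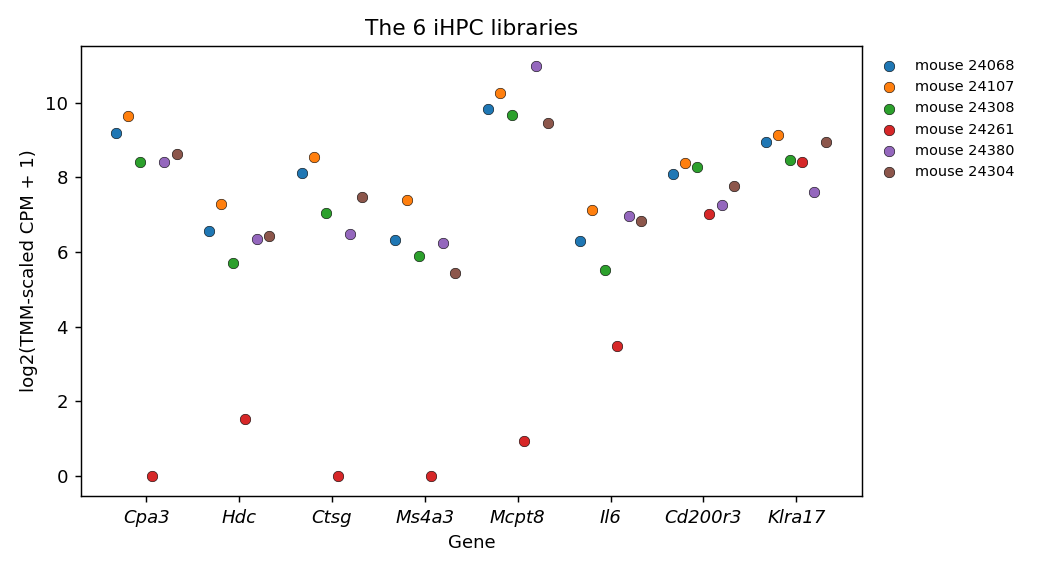
log2(TMM-scaled CPM + 1) of 8 genes (horizontal axis) in the 6 iHPC libraries, 1 colour per mouse. Cpa3, Ctsg and Ms4a3 are at 0 and Hdc and Mcpt8 near 0 in the library of mouse 24261, where Cd200r3 is at 129 and Klra17 at 337 CPM.

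In the library of mouse 24261, where Cpa3, Ctsg and Ms4a3 were at 0, Cd200r3 was at 129 CPM, against 151 to 334 in the other 5, and Klra17 at 337, against 194 to 559. Il12b was at 23.1 and Cxcl14 at 37.9 CPM there, within the range of the other 5 (10.6 to 38.8 and 14.1 to 43.6). Of the 232 genes higher than in each group, 4 stood there at less than 10% of their mean in the remaining 5: Cpa3, Hdc, Ctsg and Ms4a3. Of the 1247 genes called by the first rule, 16 did so. A gene near 0 in that library passed the filter on low counts less readily, and Mcpt8 did not pass. Both numbers are limited by this. Ctsg, a granule protease, had 88 to 373 CPM in the other 5 libraries, and Ms4a3, a gene of granulocyte and monocyte precursors, had 42.3 to 168. The call of Ms4a3 was lost without mouse 24068, 24107, 24304, 24308 or 24380. The iHPC genes were chosen with this library in the group, so these values are a description. What part basophils have in the other iHPC libraries was not tested.

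Of 19 listed platelet markers 9 were tested. Of these 7 were higher than the mean and each group mean (77.8%), but none passed against each group. The other markers did not pass the filter on low counts, so this share depends on those it kept. The summed level of the list was 289 to 428 CPM in iHPC, against 470.4 to 586 in TLR7.1 RPM and 353 to 594 in WT RPM. It was 9.59 to 51.9 CPM in TLR7.1 Mono and 15.04 to 57.4 in WT Mono. Gp1bb, a chain of the platelet receptor for von Willebrand factor, had 4.91, 20.5 and 35.2 CPM in iHPC, against 0 to 10.7 in TLR7.1 RPM. Erythroid markers summed to 1407 to 4011 CPM in iHPC, against 4792 to 7503 in TLR7.1 RPM, 134 to 461 in TLR7.1 Mono, 80.7 to 371 in WT Mono and 559 to 6787 in WT RPM, with 1 of 24 higher and 1 lower. Alas2, the first enzyme of heme synthesis in red cell precursors, had 109, 279 and 668 CPM in iHPC, against 223, 295 and 456 in TLR7.1 RPM. It did not pass against that group (adjusted p = 0.894). Of 22 markers of conventional dendritic cells 5 were higher (22.7%) and 7 were lower (31.8%), with a median change of -1.228 on the log2 scale. The list also holds Itgax and Batf3, both given above as higher in iHPC. Its summed level was 2016 to 2381 CPM in iHPC, against at most 1831 in TLR7.1 RPM, 1179 in TLR7.1 Mono, 1337 in WT Mono and 1821 in WT RPM. Flt3, the growth factor receptor of these dendritic cells, named after its values were seen, had 0.817 CPM in 1 iHPC library and 0 in 5. Of 11 markers of plasmacytoid dendritic cells 3 were higher and 4 were lower. Of 7 endothelial markers 2 were higher (28.6%), Pecam1 and Esam, and 1 was lower (14.3%), Eng. Cdh5, the cadherin of endothelium also named after its values were seen, had at most 0.925 CPM in iHPC. Cd3e, a chain of the T cell receptor complex, was also chosen after its values were seen and was at 0 in all 6 iHPC libraries. B cell markers summed to 563 to 1281 CPM in iHPC, against 1187 to 2996 in TLR7.1 RPM, and 1 of 19 was higher. Of 10 plasma cell markers 1 was higher and 1 lower (10% each). Of 10 T and NK cell markers 1 was higher (10%) and 4 were lower (40%). The summed level of that list was 9.25, 102 and 755 CPM in iHPC. It was 38.8 to 203 CPM in TLR7.1 Mono, 74.2 to 2562 in TLR7.1 RPM, 81.9 to 182 in WT Mono and 86.1 to 544 in WT RPM. Of 12 neutrophil markers 3 were higher (25%), with a sum of 298 to 1842 CPM in iHPC, against 918 to 2863 in TLR7.1 Mono. Neither of the 2 tested eosinophil markers was called, and of 20 genes that cell dissociation induces 3 were higher (15%) and 1 was lower (5%). Over all tested genes 11.3% were higher and 8.78% were lower, and several of these lists had few tested members. The part of these cells in the values above was not tested.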

How the data were processed

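The deposited table holds raw gene counts per library from the authors. HTSeq 0.4.1, TopHat, Bowtie and CASAVA 1.8.2 appear among the tools in the submitters' processing notes, beside Picard, SAMtools and FastQC, with NCBIM37 as the build. No role or order is given there, and the annotation release and the strand setting were not given in the sources used. Per the labels, libraries were made with SMART-Seq v4 and Nextera XT from 500 sorted cells, which involves amplification without molecular identifiers, so bounds cover counting error only. Of 37991 gene IDs, 20439 had counts and 32938 matched a symbol in GENCODE M21; these held 99.11% of counts.

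Counts were filtered with filterByExpr (11030 genes kept), scaled by TMM and fitted with edgeR 4.0.16 (robust quasi-likelihood, 1 mean per group, all 30 libraries, R 4.3.3), at a Benjamini-Hochberg adjusted p under 0.05. The contrast set iHPC against the unweighted mean of the 4 other group means, and each group in turn. Only the contrast against the mean was tried on simulated counts, with 1 mean per gene shared by the 4 other groups. The calls against each group were not tried this way. DESeq2 1.42.0 and limma 3.58.1 were alternatives. Folds against groups at 0 counts use a floor of 3 counts over the group.

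Named genes were the 15 higher and 10 lower called against each group, with at least 20 CPM, farthest from the nearest group, the given markers Pecam1, Itgax, Klra17 and Cd200r3, Tlr7 and the gate genes, and up to 4 called members per list. Of the genes this rule gives, 1 is not reported here. Members and lists were chosen with earlier results of these data known. Replicates are separate mice, and libraries of 1 mouse are paired by the mouse number in the labels; the deviations of such libraries correlated by -0.0774 to 0.2089, and the consensus correlation was 0.0474. Duplicate libraries were looked for, and the highest correlation between any pair was 0.9623. Genes are given without coordinates because the build of the counts differs from that of the annotation; promoter windows come from RefSeq on GRCm38.p6.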

Additional observations from a re-analysis of the deposited data

Results flagged for a closer look

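Of 342 groups of 6 libraries tested for a value far from the other 5, 34 held one. Chance gives about 1 in 20 for normally distributed values. The CPM values were not transformed and the libraries differ in depth, so that rate need not hold here. Among iHPC 14 of 15 such values came from the library of mouse 24380, the shallowest of the group. There Fnbp1l was at 327.5, Adgre1 at 535.3, Cdh1 at 112.7, Itga2b at 144.4, Mmp14 at 355.7, Timp2 at 73.96 and Bcl11a at 334.6 CPM, all above the other 5. Cdkn1b at 299.3, Ms4a6c at 1451, Spn at 799.4, Jund at 81 and Nfkbia at 929.7 CPM also stood above them, whereas Cd72 at 394.4 and Cd79b at 102.1 CPM stood below. The remaining value was Il18 at 46.59 CPM in mouse 24308, above the other iHPC libraries.

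In TLR7.1 RPM, mouse 24107 stood high for Tfec (185.3 CPM), Ccl3 (381.4), S100a9 (107.7) and S100a8 (127.1), and mouse 24068 for Slfn5 (153.6), Ifi44 (192.7) and Hpgd (1630). Single high values were Btla at 189.7 CPM in mouse 24308 and Cp at 303 CPM in mouse 24380. In TLR7.1 Mono, mouse 24380 stood high for C3 (806.5 CPM) and Tspan33 (62.18), and mouse 24304 for Pltp (246.5). In WT Mono, all values given came from mouse 24117, high for Tfec (73.24 CPM), Cxcl9 (380.6), Nrp1 (325) and Cxcl10 (495.7), and low for Itgb2 (580.7). In WT RPM, the same mouse stood high for Cd72 (124.8 CPM) and Ier3 (68.83).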

How the results depend on the processing

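Counts are given in the order higher than the mean and each group mean, lower likewise, higher than each group and lower than each group; they were 1247, 968, 232 and 171. They stayed within 1.5 times of these with DESeq2 (1427, 1121, 239 and 182), collection date, library totals and limma-voom, and leaving out 1 mouse gave 1101 to 1330, 820 to 973, 191 to 247 and 129 to 158. With the mouse as replicate block, limma-voom gave 1497, 1003, 328 and 137, against 1479, 989, 323 and 133 with no block. Thinned to the smallest library they were 79, 35, 1 and 3, by construction with fewer counts, so depth limits what can be called. With the iHPC library of mouse 24261 alone they were 357, 176, 15 and 27, with 1 library in the group. A test against a 2-fold change gave 373, 271, 65 and 51. No filter on low counts gave 2034 higher than the mean, with more genes tested. Against each TLR7.1 group alone 423 were higher and 330 lower, or 403 and 269 with the mouse as replicate block, and against each WT group alone, a setting chosen after seeing the data, 383 and 319; these use fewer groups. In the library of mouse 24261 alone the change against the mean reversed for Cdh1 (-3.45), Ctsg (-3.63), Ier3 (-1.03) and Ms4a3 (-2.34); the cause was not tested.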
